A study of Mus musculus with 4 samples.

Results

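In the mouse genome many protein-coding genes begin or end close to another gene, and a stretch of open chromatin at such a place lies at 2 gene ends at the same time. The deposited DNase-seq table of lymphoid tissue inducer (LTi) cells held 16584 islands, which are stretches of neighbouring 200 bp windows joined by the SICER peak caller because they were rich in reads. An island was counted as shared when it lay within 1 kb of an annotated end of 2 or more different protein-coding genes of the RefSeq annotation of mm10. This rule picked 1928 islands (11.6% of the table), of which 1925 were nuclear and 3 lay on the mitochondrial DNA. Another 7308 islands (44.1%) were near an end of 1 gene only, by the same distance, and are called single-end islands, and 7348 nuclear islands had no gene end within 1 kb. The rule used positions and no read counts, although a wider island reaches more gene ends, so width was not independent of it.

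DNase I cuts DNA where nucleosomes are absent or displaced, and sequencing of the cut ends maps promoters and enhancers. LTi cells are innate lymphoid cells that induce the formation of lymph nodes and Peyer's patches. Here they were sorted from Peyer's patches of C57BL/6 mice as CCR6+ CD127+ cells negative for lineage markers, KLRG1, NKp46 and NK1.1, with 2 libraries labelled Ctrl (Tcf7+/+) and 2 labelled Tcf7-KO (Tcf7fl/fl with a Cre recombinase that is not limited to LTi cells). Tcf7 encodes TCF-1, and the series asked what this factor does in LTi cells. Each library came from 300 cells, with a digestion of 5 minutes by 0.3 U of the nuclease, while the ages of the mice and any pooling of animals were not stated. Each island has 2 read counts, called peak side and control side here after their headers, and neither can be tied to a genotype or a library. The genotypes are therefore not compared, and there is no replicate spread. Every interval printed below is a 95% exact (Clopper-Pearson) interval. It covers counting error only, since reads that carry no molecular identifier may be copies of the same molecule.

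When the starts of 2 genes on opposite strands lie close together, the arrangement is called head to head and the DNA between them a bidirectional promoter. Such promoters are typically rich in CpG dinucleotides and poor in TATA boxes, and in mammals they often serve housekeeping genes of DNA repair, mitochondria and RNA metabolism. In a head-to-tail arrangement a gene starts just downstream of the end of another gene on the same strand, and in a tail-to-tail arrangement 2 genes end facing each other.

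The DNA between 2 starts is the shortest stretch that serves both genes, and 6 such stretches are shown. They come from head-to-head islands of textbook pairs or of other pairs named by the rules given below. Their genes do not overlap, and the letters of at least 40 bases between the starts could be read. Motifs played no part in the choice. Each is the plus strand of mm10 (RefSeq, GRCm38.p6), 5′ to 3′, from the base after the start of the gene on the minus strand to the base before the start of the gene on the plus strand. Capitals mark matches on either strand to 4 motifs. These are the NF-Y box CCAAT, read as ATTGG on the other strand, and the GC box of Sp1 and KLF factors, GGGCGG, which then reads as CCGCCC. The others are the core of GABP and further ETS factors, CCGGAAG, and the NRF1 core GCATGCG, whose reverse form is CGCATGC. Mrps12/Sars2 lies at chr7:28741822-28741956, Atm/Npat at chr9:53536829-53536888, Plekhj1/Sf3a2 at chr10:80798627-80798734, Brca1/Nbr1 at chr11:101551956-101552106, Ranbp1/Trmt2a at chr16:18248695-18248846 and Psmb9/Tap1 at chr17:34187331-34187555.
Mrps12/Sars2: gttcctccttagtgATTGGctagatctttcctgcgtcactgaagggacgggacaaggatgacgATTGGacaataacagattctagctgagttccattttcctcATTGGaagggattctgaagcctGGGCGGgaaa
Atm/Npat: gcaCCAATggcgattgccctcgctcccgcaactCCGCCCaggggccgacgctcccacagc
Plekhj1/Sf3a2: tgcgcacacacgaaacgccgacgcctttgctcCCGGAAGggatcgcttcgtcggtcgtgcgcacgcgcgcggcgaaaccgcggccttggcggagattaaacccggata
Brca1/Nbr1: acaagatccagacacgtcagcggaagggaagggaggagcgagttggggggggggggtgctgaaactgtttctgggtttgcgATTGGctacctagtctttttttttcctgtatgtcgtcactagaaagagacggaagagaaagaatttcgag
Ranbp1/Trmt2a: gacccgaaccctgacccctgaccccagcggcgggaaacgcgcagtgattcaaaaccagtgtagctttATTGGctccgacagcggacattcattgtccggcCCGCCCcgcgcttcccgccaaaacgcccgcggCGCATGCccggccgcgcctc
Psmb9/Tap1: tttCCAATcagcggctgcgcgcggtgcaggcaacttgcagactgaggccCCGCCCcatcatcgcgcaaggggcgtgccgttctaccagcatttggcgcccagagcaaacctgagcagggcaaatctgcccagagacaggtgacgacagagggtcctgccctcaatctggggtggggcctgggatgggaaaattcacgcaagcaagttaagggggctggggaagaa

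The 6 stretches were 60 to 225 bases long. The Mrps12/Sars2 stretch, between a protein of the mitochondrial ribosome and the mitochondrial seryl-tRNA synthetase, held 3 CCAAT matches in 135 bases. The Plekhj1/Sf3a2 stretch, which starts the splicing factor gene Sf3a2 on its right, had no CCAAT or GC box match and 1 ETS match among 20 CpG dinucleotides in 108 bases. The Ranbp1/Trmt2a stretch was the only 1 of the 6 with an NRF1 match. GC content ran from 48.1% for Mrps12/Sars2 to 71.7% for Atm/Npat, in which the CCAAT and GC box matches lie within 60 bases between the DNA damage kinase gene Atm and the histone gene activator Npat. A match is a run of letters and says nothing of whether a factor was bound.

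Shared islands carried more reads than single-end islands on both sides of the table at the same median width. The median shared island was 2000 bp wide (quartiles 1400 to 2800, range 400 to 10400), and the median single-end island was also 2000 bp wide (1400 to 2600, range 200 to 11800). Shared islands had a median of 26 peak-side reads (18 to 38, range 8 to 168) against 22 (15 to 32, range 8 to 132) in single-end islands. On the control side the medians were 42 reads (29 to 61) and 36 reads (24 to 52). The quartiles overlapped widely: over all pairs made of 1 shared and 1 single-end island, the shared island had more peak-side reads in 58.6% and more control-side reads in 58.3%, where 50% would mean no order. Per kilobase of island the medians were 13.2 and 12.1 reads on the peak side and 21.1 and 19.3 on the control side.

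The ratio between the sides of the table did not share this difference. In the authors' deposited table the fold is peak-side reads over control-side reads multiplied by 0.345, and its median was 1.83 (1.55 to 2.21) in shared and 1.86 (1.54 to 2.28) in single-end islands. Summed over all islands of a class the fold was 1.83 in both, with intervals of 1.81 to 1.85 for shared and 1.82 to 1.84 for single-end islands. If the scaling was instead set so that the summed reads of both sides were equal, the medians lay below 1, at 0.960 and 0.975, so that the direction of a fold against 1 depends on the scaling. Within classes of equal reads the shared islands were again slightly lower, with median folds of 1.69 and 1.83 at 8 to 14 peak-side reads and 1.90 and 1.93 at 40 or more. By the FDR in the authors' deposited table, 1590 of 1925 shared islands (82.6%) were under 0.05, beside 82.3% of all 16584 islands, so the share of called islands was near the background.

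The excess of reads was present at every width. Among islands of up to 1000 bp the median was 18 peak-side reads in 247 shared and 16 in 1234 single-end islands. Among islands over 3000 bp it was 35 in 375 shared and 31 in 1198 single-end islands, and in the 3 classes between them the shared median was also 3 to 5 reads above the single-end median. On the control side the shared medians ran from 29 to 59 reads over the 5 width classes and the single-end medians from 25 to 52.

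**Figure D1:**
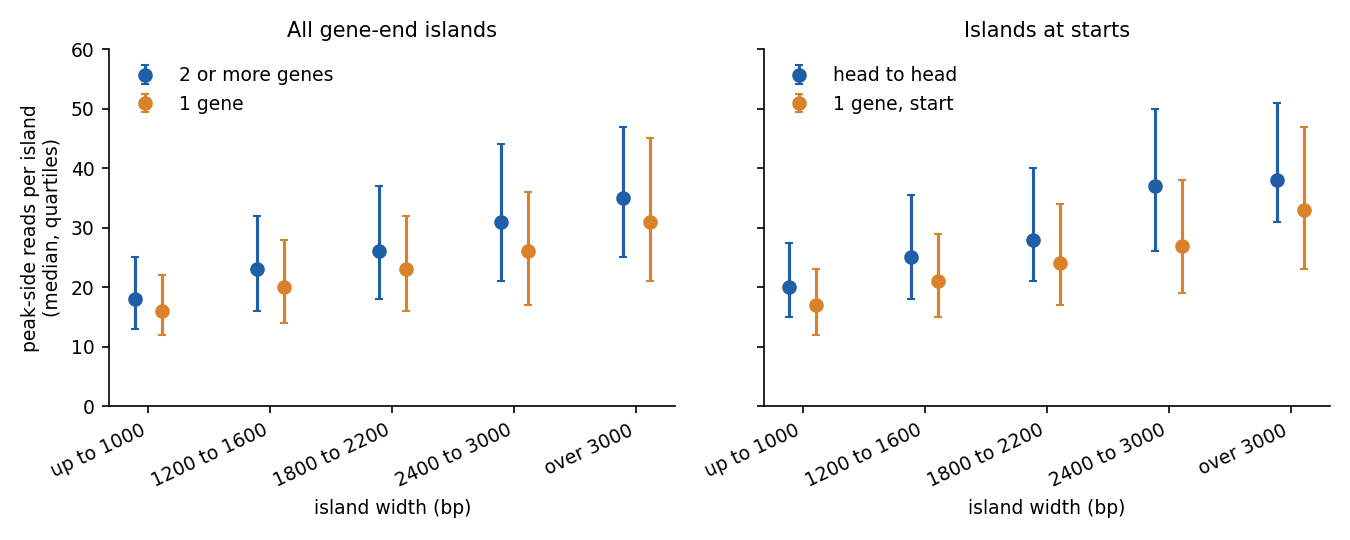
Peak-side reads per island (median, with lines from the lower to the upper quartile) in 5 classes of island width in bp, for all gene-end islands on the left and for islands at gene starts on the right. In each class the median of shared islands (blue) lies above that of single-end islands (orange), and the quartiles overlap.

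Reads differed more with the arrangement of the 2 genes than with sharing itself. Strand was taken from the RefSeq promoter table, which covers 17492 of the 21900 protein-coding genes (79.9%), and an arrangement was read from the closest pair of gene ends. Of the 1838 shared islands with exactly 2 genes, 832 (45.3%) were head to head, 413 (22.5%) head to tail and 72 (3.92%) tail to tail. Another 20 lay at 2 starts on the same strand, 1 at 2 ends on the same strand, 32 at a start and an end on opposite strands, and for 468 (25.5%) the strand of at least 1 gene was not known.

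Among the 3 main arrangements of 2 genes, head-to-head islands had the highest median reads. These were 29 peak-side reads (20 to 42) and 46 control-side reads (31 to 66), beside 23 (16 to 34) and 38 (25 to 54) for 5296 islands at a single start. A head-to-head island had more peak-side reads in 61.7% of its pairings with a single-start island and was wider in 51.4%. At equal width the gap was 3 to 5 reads in 4 of the 5 classes and 10 reads at 2400 to 3000 bp, where the medians were 37 and 27. Head-to-tail islands, in contrast, had a median of 23 peak-side reads (16 to 31), the same as a single start, and were higher in 49.3% of pairings with single-start islands. They were wider, however, at a median of 2000 bp against 1800 bp. From the narrowest to the widest class, head-to-tail medians were 15, 21, 22, 25.5 and 29 peak-side reads. Those of single-start islands were 17, 21, 24, 27 and 33, so at equal width head-to-tail islands were level or lower.

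Tail-to-tail islands were low in reads and wide. Their medians were 17 peak-side reads (12.75 to 21), 26.5 control-side reads and 2300 bp, against 14 reads (11 to 18), 21 reads and 2000 bp in 367 islands at a single 3′ end. From the narrowest to the widest of the 5 width classes, tail-to-tail medians were 10, 14, 13, 17 and 19 peak-side reads. Those of islands at a single 3′ end were 11, 12, 14, 15 and 18. At equal width neither group was higher throughout, and each class held only 5 to 21 tail-to-tail islands. A head-to-head island had more peak-side reads than a tail-to-tail island in 79.4% of pairings. In short genes an island at the end can reach the start as well: 18 of the 72 tail-to-tail islands also had a start within 1 kb, with a median of 20.5 peak-side reads, and the other 54 had 15. Islands without any gene end within 1 kb had a median of 13.

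**Figure D2:**
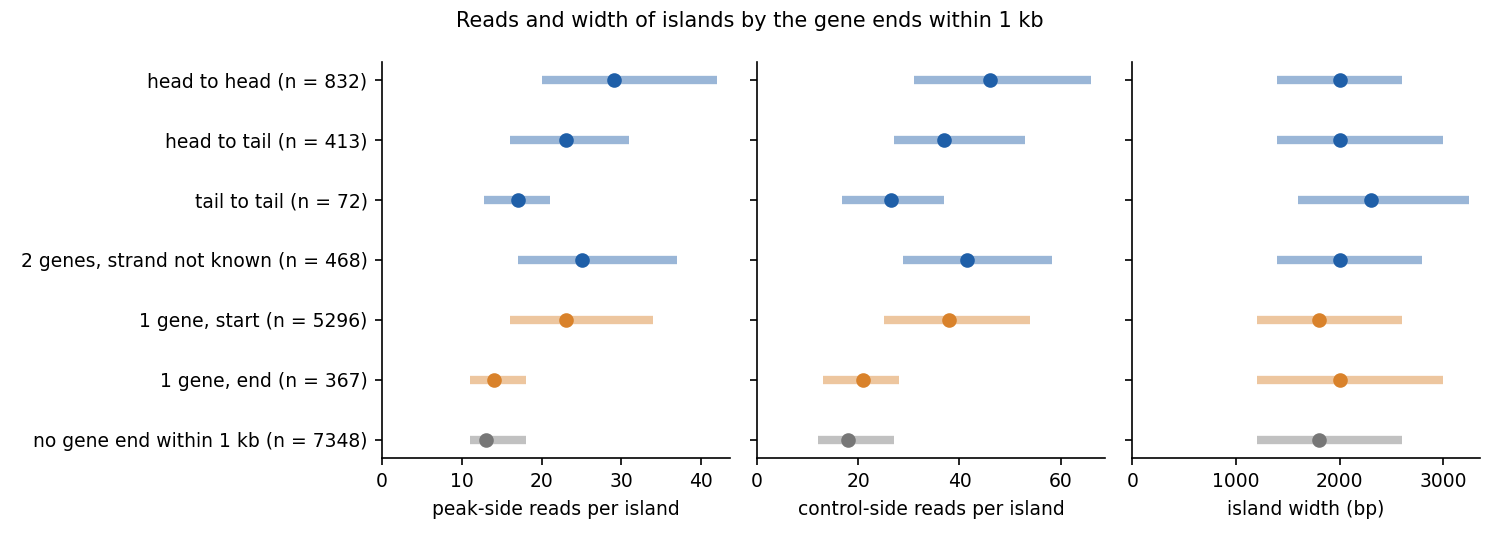
Peak-side reads, control-side reads and width in bp of islands grouped by the gene ends within 1 kb; points are medians and bars run from the lower to the upper quartile. Among the groups plotted, head-to-head islands have the highest medians on both sides (29 and 46 reads), and tail-to-tail islands lie near the islands at a single 3′ end although they are wider.

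Most head-to-head islands covered both starts. The starts lay a median of 151.5 bp apart (59 to 374.5, up to 3268), both lay inside the island in 742 of 832 cases (89.2%), and the middle of the island was a median of 301 bp from the midpoint of the starts, and within 200 bp of it in 307 (36.9%). In head-to-tail islands the ends were 743 bp apart and both inside in 200 of 413 cases (48.4%), and in tail-to-tail islands both were inside in 23 of 72 (31.9%). In 536 head-to-head islands the 2 genes did not overlap, and these had a median of 30 peak-side reads, compared with 27 in the 296 islands whose genes overlapped at their starts. Among the non-overlapping genes the median was 28 reads with starts up to 200 bp apart (370 islands), 35 at 201 to 500 bp (101 islands) and 34 in the 65 islands beyond that.

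Seen from the genes, most close head-to-head pairs had an island. Of 1005 head-to-head pairs with starts within 2 kb of each other, 861 (85.7%, interval 83.4 to 87.8) had an island within 1 kb of both starts. Head-to-tail pairs had a shared island in 410 of 902 cases (45.5%, 42.2 to 48.8) and tail-to-tail pairs in 105 of 1049 (10.01%, 8.26 to 11.99). An island has to be within 1 kb of both ends, so this share is bound to fall with distance, and it was 90.9% of head-to-head pairs up to 250 bp apart and 56.9% at 1001 to 2000 bp. The share with an island at either end was 90.9% and 75.2% in these head-to-head classes. For head-to-tail pairs it stayed between 57.1% and 58.8% over the 4 distance classes, and for tail-to-tail pairs between 12.7% and 16.2%. For reference, 45.5% of all starts and 7.87% of all 3′ ends of the genes with known strand had an island within 1 kb. Close genes of a family and genes that share an island are not independent units, so these intervals are narrower than the true error.

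**Figure D3:**
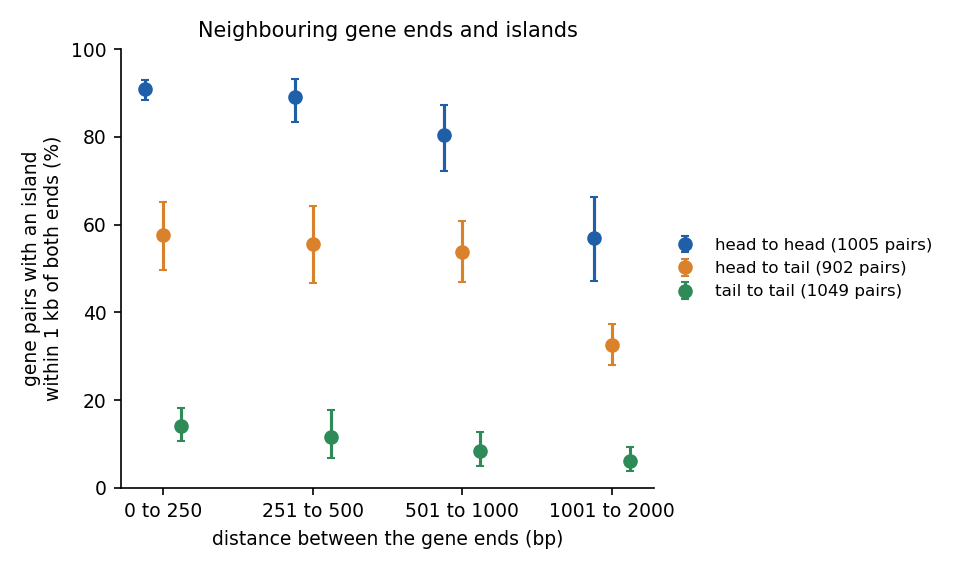
Share in percent of neighbouring gene pairs that have an island within 1 kb of both ends, by the distance between the ends in bp and the arrangement of the pair, with 95% exact intervals for counting error. Head-to-head pairs stay above head-to-tail pairs and these above tail-to-tail pairs in all 4 distance classes.

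A start with a head-to-head neighbour had an island more often than a start alone. Of 1993 starts with a head-to-head neighbour within 2 kb, 1733 (87.0%, 85.4 to 88.4) had an island within 1 kb, beside 5427 of 14142 starts (38.4%, 37.6 to 39.2) with no other gene end within 2 kb. An island between 2 starts counts for both of them. Starts with a 3′ end of an upstream gene within 2 kb stood between these values, at 484 of 872 (55.5%). Without olfactory and vomeronasal receptor genes, which are numerous and active mainly in sensory neurons, the shares with and without a neighbour were 87.0% and 42.1%. Of 1110 genes with an Olfr symbol, 1 had an island within 1 kb of an end, and it was not a shared one.

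The promoter windows, 250 bases before to 50 bases after each start in the RefSeq table, also differed in base composition. In 370 of the head-to-head islands (44.5%) the genes did not overlap and the starts were up to 200 bp apart. A window of such an island can also hold the start of the other gene, so it can cover 2 promoters where a single-start window covers 1. What this adds to the CpG counts and motif shares was not tested. Head-to-head islands had a median of 24 CpG dinucleotides per window (17 to 30) and 62.3% GC, single-start islands 22 (16 to 30) and 62.0%, head-to-tail starts 19.5 (14 to 25) and 60.0%, and starts without an island 4 (2 to 12) and 50.3%. Of the starts with a head-to-head neighbour 12.5% had fewer than 10 CpG, compared with 48.0% of starts without a neighbour. At equal CpG content of the start's own window the difference in island share remained. With 0 to 9 CpG, 139 of 249 starts with a head-to-head neighbour (55.8%) and 563 of 6789 starts without a neighbour (8.29%) had an island. With 20 to 29 CpG the shares were 94.4% and 71.6%. The CpG of the neighbour's window were not counted, and an island at the neighbour's start can lie within 1 kb of both starts. What this adds to the shares was not tested. The reads per island came closer together as CpG content rose, with medians of 26 peak-side reads in head-to-head and 17 in single-start islands at 0 to 9 CpG, and 30 and 28 at 30 or more. For head-to-head islands the CpG class came from the window of 1 of the 2 genes only.

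Short sequence motifs were searched on both strands of the same windows, counting 1 window per head-to-head island. The limit that a head-to-head window can cover both starts holds here as well. The ETS core CCGGAAG was present in 27.2% of 826 windows of head-to-head islands (24.2 to 30.4), 24.1% of head-to-tail starts, 18.7% of single-start islands (17.6 to 19.7), 4.38% of starts without an island and 11.9% of all 17492 windows. The YY1 core ATGGCGG was found in 11.4% of head-to-head and 8.80% of single-start windows, against 5.44% of all windows. The NRF1 core GCATGCG (8.84% and 7.61%, all windows 4.50%) and the ZNF143 core ACTACAA (6.30% and 4.42%, all windows 3.82%) were also somewhat more frequent in head-to-head windows, as was the BANP core TCTCGCGA (3.87% and 2.39%, all windows 1.53%), but the intervals of head-to-head and single-start windows overlapped for YY1, NRF1, ZNF143 and BANP.

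The GC box went the other way, with GGGCGG in 65.9% of head-to-head (62.5 to 69.1) and 71.2% of single-start windows (69.9 to 72.4), against 46.3% of all windows. The NF-Y box CCAAT was at 40.6% and 40.5%, close to the 39.2% of all windows. The TATA box letters TATAAA were in 4.36% of head-to-head, 6.13% of single-start and 9.76% of head-to-tail windows, compared with 13.3% of all windows. The E box CACGTG (10.5% and 10.9%, all windows 7.91%) and the cyclic AMP response element TGACGTCA (3.15% and 3.81%, all windows 2.33%) differed little. The TCF and LEF letters CTTTGAA, the motif family of TCF-1, were in 2.42% of head-to-head and 3.45% of single-start windows (all windows 4.74%), and the RUNX letters TGTGGTT in 2.66% and 3.49% (all windows 4.83%). Matches to GGGCGG and ATGGCGG can overlap, and windows rich in C and G offer more places for motifs that contain CpG.

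**Figure D4:**
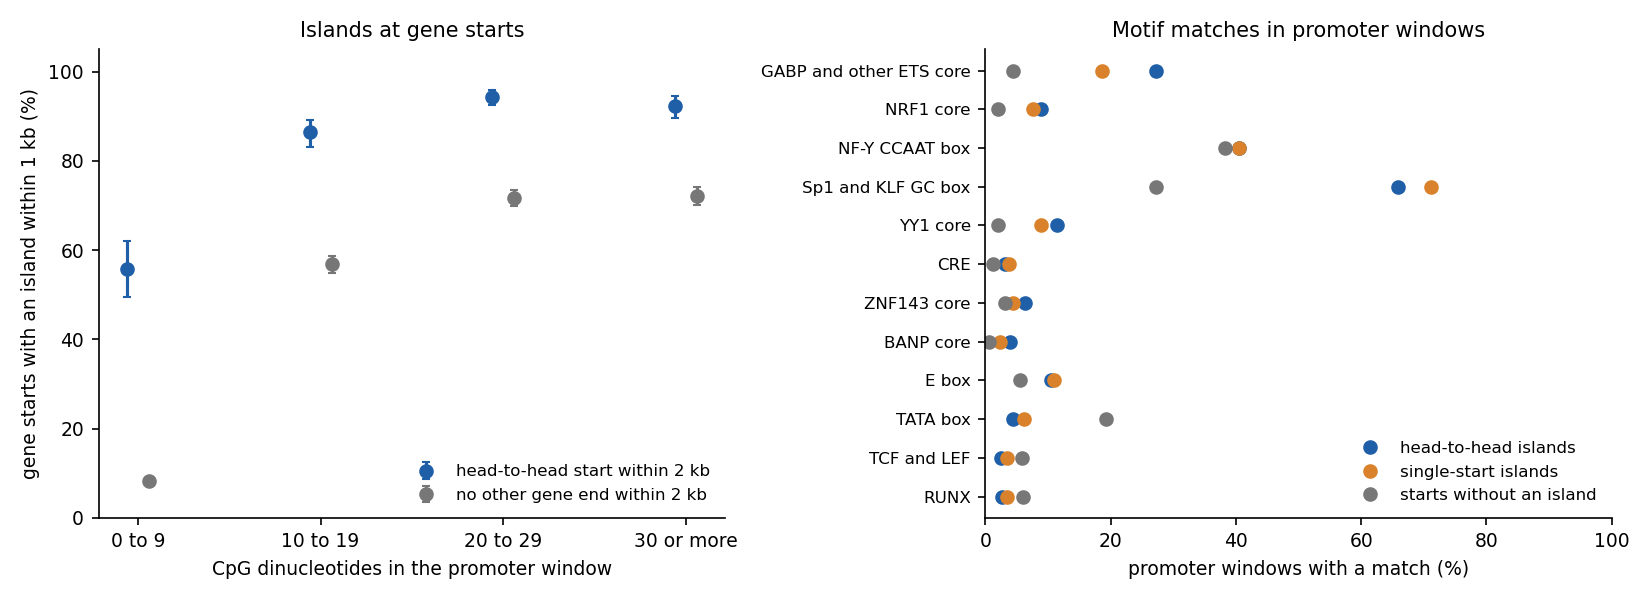
Left, share in percent of gene starts with an island within 1 kb by CpG dinucleotides in the promoter window, for starts with and without a neighbouring gene end, with 95% exact intervals for counting error. Right, share in percent of promoter windows with a match to 12 motifs, where head-to-head islands (blue) lie above single-start islands (orange) for the ETS core and below them for the GC box.

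In the stretches strictly between 2 starts, like the 6 printed above, the letters could be read for 278 head-to-head islands, with a median length of 100 bases, 63.3% GC and 8.55 CpG per 100 bases. Only stretches of at least 40 bases between non-overlapping genes that lay whole inside 1 promoter window were read. Longer gaps were thus left out, and each stretch is shorter than the windows, which limits the lengths and the motif shares. A GC box was present in 138 (49.6%), a CCAAT box in 101 (36.3%), an ETS core in 34 (12.2%) and an NRF1 core in 19, and 50 stretches (17.99%) had none of the 12 motifs. TATAAA was in 5 and CTTTGAA in 1. The YY1 core was in 0 of 278, which allows a share of up to 1.08% (3 counts of the total, not an exact interval), although the windows that include 50 bases after the start held it in 11.4% of head-to-head islands.

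Most of the gene pairs listed as textbook pairs had a shared island, as did most close head-to-head pairs in general. Of 16 pairs listed, 14 had an island within 1 kb of both genes, beside 861 of all 1005 head-to-head pairs within 2 kb (85.7%). Acat2 and Tcp1 had no common island. No arrangement was read for them, so this pair may not be a bidirectional one. The island at the start of the chaperonin gene Tcp1 was head to head with the mitochondrial ribosomal gene Mrpl18 (49 peak-side and 75 control-side reads). The type IV collagen genes Col4a1 and Col4a2, which serve basement membranes, had no island at either gene.

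The island of Atm and Npat on chr9:53535601-53537600 held 76 peak-side against 84 control-side reads, for a fold of 2.62 (1.90 to 3.62) in the authors' deposited table. This was the largest peak-side count among the textbook pairs. Hspd1 and Hspe1, the mitochondrial chaperonin and its cofactor, shared an island on chr1:55086201-55088800 with 62 and 108 reads. The island of the DNA repair gene Brca1 and the autophagy receptor gene Nbr1 on chr11:101550201-101553200 held 54 and 73 reads. Gart and Paics, which encode enzymes of purine synthesis, shared islands with the splicing cofactor gene Son (48 and 94 reads) and with the purine enzyme gene Ppat (44 and 67 reads).

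The replicative helicase gene Mcm4 and the DNA end-joining kinase gene Prkdc shared an island with 44 and 73 reads, Ranbp1 and Trmt2a with 44 and 88, and the antigen processing genes Psmb9 and Tap1 with 35 and 67. Mrps12 and Sars2 had 26 and 41 reads, and Cox4i1, a subunit of cytochrome oxidase, had 23 and 41 together with Emc8 and the model gene Gm27021. The lowest of those shown in the plot was the island of the flap endonuclease gene Fen1 and Tmem258, with 12 and 45 reads, a fold of 0.773 (0.372 to 1.49) in the authors' deposited table. The counts of these pairs spanned 12 to 76 peak-side reads, so that textbook pairs lay on both sides of the head-to-head median of 29.

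**Figure D5:**
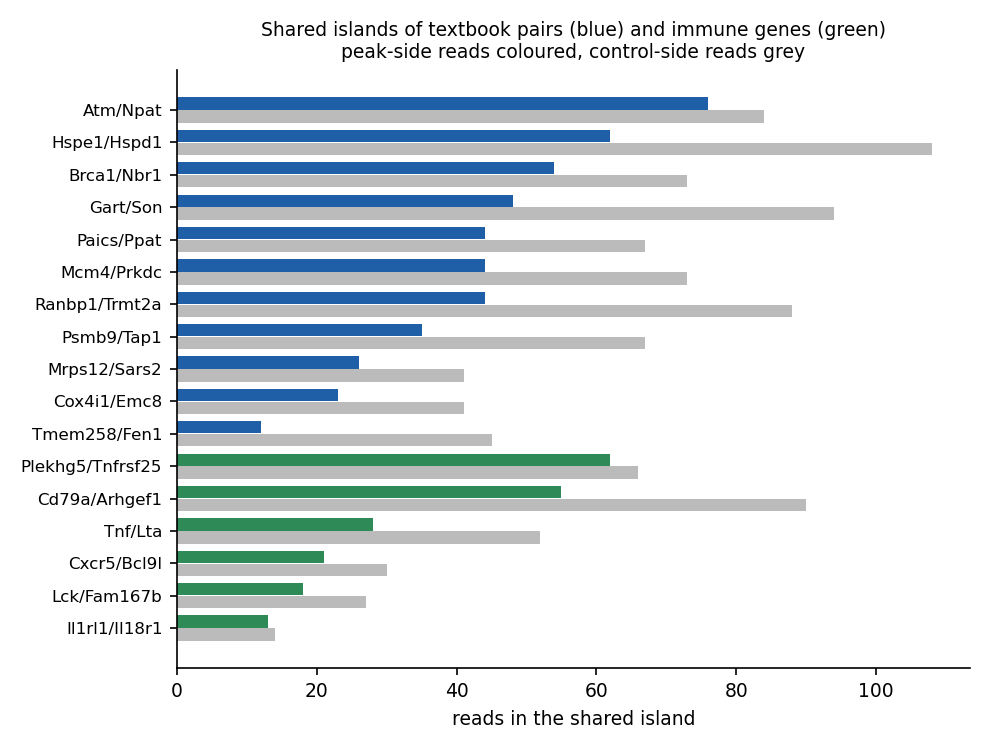
Peak-side reads (coloured) and control-side reads (grey) in the shared islands of 11 textbook pairs (blue) and of 6 pairs with an immune gene (green). Counts of peak-side reads run from 76 for Atm/Npat to 12 for Tmem258/Fen1, and among the immune genes from 62 for Plekhg5/Tnfrsf25 to 13 for Il1rl1/Il18r1.

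Counts by gene list were set beside those of all genes, and differences between lists were not tested. Over all protein-coding genes, 10323 of 21887 (47.2%) had an island at an end, and of these 3690 (35.7%) had a shared one. Of the mitochondrial list 15 of the 23 genes with an island had a shared one (65.2%), of the chaperone and proteasome list 13 of 24 (54.2%), of the RNA processing and translation list 17 of 32 (53.1%), and of the DNA replication and repair list 21 of 41 (51.2%). These lists are short: the interval was 42.7 to 83.6% for the mitochondrial list, while those of the other 3 (32.8 to 74.4%, 34.7 to 70.9% and 35.1 to 67.1%, in the order given) include the 35.7% of all genes. Each of these lists also holds genes of the textbook pairs, such as Cox4i1 and Surf1, Hspd1 and Hspe1, Sars2 and Ranbp1, and Atm and Brca1. Such genes were known in advance to lie close to another gene, which raises these shares by construction. Only some of the gene families counted are given here. Of 69 mitochondrial ribosomal genes with an island (Mrpl and Mrps), 39 had a shared one (56.5%, 44.0 to 68.4). For Ndufa symbols, mostly complex I subunits and assembly factors, it was 16 of 22 (72.7%, 49.8 to 89.3). Cytosolic ribosomal genes (Rpl and Rps) stood at 25 of 77 (32.5%, 22.2 to 44.1). Zinc finger genes with a Zfp symbol stood at 51 of 242 (21.1%, 16.1 to 26.8). Among proteasome symbols the counts were 3 of 6 for Psma, 5 of 9 for Psmb, 3 of 7 for Psmc and 2 of 14 for Psmd.

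In the mitochondrial list, the import channel gene Tomm40 had an island with 66 peak-side and 93 control-side reads, which also reached the end of Nectin2. Atp5d, a subunit of ATP synthase, had an island at its start shared with Cbarp (56 and 90 reads) and a second one at its end that reached the start of Midn (80 and 167 reads). In the chaperone list, the island of the chaperonin gene Cct7 and Pradc1 held 62 and 97 reads, and that of the proteasome activator gene Psme2 and Rnf31, a subunit of the linear ubiquitin ligase, 50 and 93. In the RNA list, Snrpd2, a core protein of spliceosomal particles, shared an island with Qpctl (60 and 84 reads) and the splicing factor gene Srsf2 with Mfsd11 (38 and 80). The helicase gene Mcm7 of the replication list shared its island with Ap4m1, at 39 and 95 reads. Its fold of 1.19 (0.798 to 1.75) in the authors' deposited table was not called.

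Histone genes of the replication-dependent clusters made up a small group of their own. These pairs were singled out after their values were seen. Shared islands with 2 or more H2ac, H2bc, H3c, H4c or H1f genes numbered 15, of which 13 lay on chromosome 13. The 6 head-to-head islands, each between an H2A and an H2B gene with starts 164 to 249 bp apart, had 12 to 31 peak-side and 10 to 32 control-side reads, and their median fold in the authors' deposited table was 2.77, with a range of 1.56 to 3.52. H2ac11 and H2bc11 had 17 and 14 reads, and H2ac12 and H2bc12 had 12 and 10. Their control-side counts lay near or below the lower quartile of 31 of head-to-head islands. Histone genes are near-identical copies of each other, and how reads that match several copies were treated was not stated.

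Most genes that mark LTi cells had an island at an end. Of 21 LTi and group 3 innate lymphoid genes, 17 (81.0%) had an island at an end, among them Il7r, Id2, Kit, Il23r, Ahr and Tox. The other 4 had none within 1 kb of their outermost ends, among them Ccr6, Rora and Il2rg. Over all protein-coding genes the share was 47.2%. It was 94.4% in the activation list and 93.8% in the NF-κB and TNF receptor list, so a high share was not particular to LTi genes. A shared island was present for 2 of the 17 LTi genes (11.8%, 1.46 to 36.4), an interval that includes the 35.7% of all genes. The death receptor gene Tnfrsf25 lay in an 8000 bp island on chr4:152113201-152121200 that also held the end of Plekhg5 and the end of Espn, with 62 and 66 reads, a fold of 2.72 (1.90 to 3.91) in the authors' deposited table. Cxcr5, the receptor that draws cells to B cell follicles, shared an island with Bcl9l in an arrangement that could not be read, since their strands were not known (21 and 30 reads).

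Lists of other cell types had fewer genes with an island: 4 of 13 T cell genes, 5 of 12 B cell genes, 5 of 11 myeloid genes, 3 of 10 genes of NK cells and type 1 innate lymphoid cells, and 2 of 10 epithelial and stromal genes. Cd3e, Ms4a1, Itgam, Ncr1 and Krt8 had no island at an end, whereas Cd3d, Cd6 and Cd247 of the T cell list, Cd79b, Cd74, Ebf1 and Blk of the B cell list, Cd14, Cebpa, Cebpb, Batf3 and Fcgr3 of the myeloid list, Eomes and Nkg7, and Epcam and Col1a1 had a single-end island. Among these lists a shared island was present for Lck, Cd79a and Il18r1. The island next to Cd79a (55 and 90 reads) lay over the start of the broadly expressed gene Arhgef1 and reached to within 1 kb of the end of Cd79a. That start and that end are 1128 bp apart. The island at the start of the T cell kinase gene Lck had 18 and 27 reads and reached to within 1 kb of the end of Fam167b. Il18r1, the IL-18 receptor gene, had an island at its start just after the end of Il1rl1, with 13 and 14 reads. What part cells outside the gate have in these reads was not tested.

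Of 15 cytokine genes 7 (46.7%, beside 47.2% of all genes) had an island at an end, and Tnf and Lta shared theirs. Tnf and Lta, which both act in the formation or order of lymphoid organs, lie in tandem. Their island on chr17:35200201-35203400 had 28 and 52 reads, a fold of 1.56 (0.950 to 2.52) in the authors' deposited table. Of the 17 activation genes with an island 3 had a shared one. Junb, Jund and Ier3 are short genes, and the island around Junb (140 and 236 reads) ran over the whole gene and the end of Prdx2. The island of Jund reached the start of Iqcn (88 and 157 reads), and that of Ier3 the closest end of Flot1 (19 and 39 reads). In the NF-κB and TNF receptor list 3 of 15 were shared, with Ltbr, the lymphotoxin β receptor, beside Scnn1a (15 and 41 reads), Map3k14, the kinase NIK, beside Spata32 (18 and 17 reads), and Ikbkg, the NEMO subunit, beside Fam3a (9 and 19 reads).

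The shared islands with the most reads were ranked by the sum of both sides. The largest count, 168 peak-side and 241 control-side reads on chr9:124422601-124426400, lay at the model genes LOC108167694 and Gm20783. The Junb island came next, and then Sez6/Phf12 (105 and 147 reads). The 12 also held Socs1/Tnp2 (96 and 129), where Socs1 is a feedback inhibitor of cytokine signalling and lies whole inside the island. Bcl2l11, the proapoptotic BIM, shared an island with the end of Acoxl (92 and 141 reads), and the circadian factor gene Dbp shared 1 with Car11 and Sphk2 (89 and 156 reads). Zfp36l1, an RNA-binding regulator of mRNA decay, and the model gene Gm52006 had 84 and 159 reads, and Mepce and Zcwpw1 had 84 and 149. Of the 12 islands with the largest sums, Spata5/Nudt6 (84 and 158 reads) and H2-DMa/Brd2 (82 and 165) were head to head and 2 had genes of unknown strand. A ranking by peak-side reads alone gives another list: the head-to-head island of Fam76b and Cep57, named after its values were seen, had 96 peak-side reads.

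The widest shared island ran over 10400 bp at Atp5d and Midn, followed by Prdx2/Junb with 9000 bp and Rab37/Slc9a3r1 with 8600 bp (64 and 123 reads). Islands with 3 or more genes numbered 87, with medians of 2600 bp and 30 peak-side reads against 2000 bp and 26 reads at 2 genes. An island with 5 genes lay at Spsb3, Eme2, Mrps34, Nme3 and Mapk8ip3 (22 and 47 reads) and another at Tomm6, Gm20517, Usp49, Frs3 and Prickle4 (30 and 55 reads). The island with 4 genes lay at Ncaph2, Sco2, Tymp and Odf3b (30 and 69 reads). The island with 9 genes, on chr1:88219001-88221800, lay at the common 3′ end of the Ugt1a genes, which splice different first exons to the same last exons, so that 1 place was counted as 9 gene ends.

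In 28 shared islands (1.45%) the closest ends coincided, as at Utp14b and Acsl3 (23 and 45 reads) and at Asdurf and Asnsd1 (20 and 43 reads), where 2 annotated genes begin or end at the same base. When the 2 genes were not allowed to overlap, 1396 shared islands remained under the rule.

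Among shared islands with at least the median reads of the table, the extremes of the fold in the authors' deposited table came from modest counts. The largest was 5.11 (2.91 to 9.19) at the start of Lrrc73 after the end of Yipf3, from 37 and 21 reads. It was followed by Kcp/Atp6v1fnb with 4.97, Naa10/Renbp with 4.56, Plaa/Ift74, Fxyd5/Fxyd7 and Rnf39/Ppp1r11 with 4.35 each, H2az1/Dnajb14 with 4.19 and Eef1akmt4 with its readthrough gene with 3.99. Their control-side counts were 12 to 21 reads. Of these 8 islands, only Plaa/Ift74 was read as head to head, and the strands at Fxyd5/Fxyd7 were not known.

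The smallest fold in that group of islands was 0.620 (0.423 to 0.889) at Hjurp and Mroh2a on chr1:88254001-88262200, from 37 peak-side and 173 control-side reads. Hjurp encodes the chaperone of the centromeric histone CENP-A. The Ugt1a island on the same chromosome had 15 and 85 reads and was at 0.512 (0.274 to 0.893) in the authors' deposited table. Dph3/Oxnad1 (0.903), Mmgt2/Lrrc75a (0.950), Sdhaf2/Cpsf7 (0.967), Mcoln1/Pnpla6 (0.980) and Cep170b/Gm46382 (1.01) followed, and their intervals all reached above 1. In all, 26 of 1925 shared islands (1.35%) and 138 of 7308 single-end islands (1.89%) had a fold under 1.

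Chromosomes differed in how often a gene-end island was shared. Over the nuclear genome 20.8% of 9233 gene-end islands were shared, from 10.5% on chromosome 18 (24 shared islands) to 29.1% on chromosome 7 (202 shared islands) among autosomes, with 26.2% on chromosome 17, 24.9% on chromosome 19 and 16.0% on the X chromosome. None of the genes on chromosome 18 is in the promoter table, so no arrangement could be read there. Mitochondrial DNA is nearly free of nucleosomes and present in many copies, and its 3 islands were set apart, with 4112 peak-side and 6974 control-side reads at ND1, ND2, COX1 and COX2, 59 and 83 at ATP6, COX3, ND3, ND4L and ND4, and 3564 and 6205 at ND3 to CYTB. The whole table held 425134 peak-side and 645087 control-side reads, and no island had fewer than 8 peak-side reads. Whether gene pairs that lack an island were open was not detectable at this depth.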

How the data were processed

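DNase-seq was run on LTi cells in 4 libraries, 2 per genotype. Bowtie2 2.4.2, SICER 2.0 and build mm10 are named per the submitters' processing notes, without role or order. The table gives, per the file headers, 2 raw read counts for each island, a p-value, an FDR (q-value) and a fold, which is a ratio. The counts were deposited raw. The deposited fold was recomputed in 16573 islands as peak-side reads over control-side reads times 0.345, and 11 islands had no control-side reads. By that factor the control side is 2.90 times as large. Library totals and any pooling of replicates were not stated.

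Gene ends were the outermost ends of 21900 protein-coding genes in RefSeq GRCm38.p6, the assembly of mm10, and strands came from its promoter table. The planned comparison of the genotypes with edgeR was not run, because the read columns name no library. Classes were described by medians, quartiles and shares with exact intervals, without p-values. Named islands were those with 5 or more genes, the 12 with the most reads summed over both sides, the 8 largest and 6 smallest folds at or above the median peak-side reads of all islands, the widest and closest 3, textbook pairs, every shared island of the LTi, cytokine and other cell type lists, and up to 4 per other list. The only island with 4 genes was named after its values were seen. Some named items are not reported here. The islands, lists and rules were chosen with earlier results of these data known. Alternatives changed the distance, gene models, read minimum, width, FDR and scaling. The assignment of ends and arrangements was tested on simulated data. Python 3.11.15, pandas 2.3.3, NumPy 2.4.6, SciPy 1.17.1 and matplotlib 3.10.9 were used.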

Additional observations from a re-analysis of the deposited data

How the results depend on the processing

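No paired analysis was possible because the read columns carry no replicate numbers and name no library, and for the same reason the fits without each library, with DESeq2 and without a filter were not run. Settings for head-to-head pairs and starts, and the restriction to autosomes, were chosen after seeing the data. Of 110 alternative values, 67 stayed within the 95% interval of the value reported, or within 1.5 times it for the number of shared islands. For shares this was the exact interval. For medians it was an interval from the ranks of the islands, which treats islands as independent. In each of the settings on distance, reads and width given here, the median reads of shared islands, on either side, stayed above those of single-end islands. With 500 bp to a gene end, 37.1% of close pairs and 83.2% of head-to-head pairs had an island. With 2 kb these shares were 47.6% and 88.0%, and the median of single-end islands was 21 peak-side reads and that of shared islands 40 control-side reads. When the island had to overlap the end, the medians were 28 and 23 peak-side and 46 and 37 control-side reads, and the shares 30.6% of close pairs, 77.7% of head-to-head pairs and 82.4% of starts with a head-to-head neighbour. Without overlapping genes 44.9% of close pairs had an island. With at least 20 peak-side reads, the medians were 2200 bp in both classes, 32 and 30 peak-side and 52 and 48 control-side reads, 34 and 30 in head-to-head and single-start islands, and a fold of 1.86 in shared islands. By construction fewer islands remained, and the shares were 90.7% called, 28.8% of close pairs, 67.7% of head-to-head pairs and 68.0% of starts. At widths of 1000 to 2000 bp the medians were 23 and 20 peak-side and 37 and 33 control-side reads, and 26 and 21 in head-to-head and single-start islands. With ends within 1 kb of each other the shares were 46.8%, 89.2% and 89.2% of starts, and with called islands only 33.5%, 72.8% and 73.7%. At an FDR under 0.01, 65.3% of shared islands were called. With the control side scaled by the reads in all islands, 2.03% were called and the median folds turned to 0.960 in shared and 0.975 in single-end islands, which follows from the larger factor. The cause of the other shifts was not tested.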
